A study of Mus musculus with 22 samples.

Results

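The cytosolic ribosomal protein genes encode the protein parts of the cytosolic ribosome. They were taken as all protein-coding genes whose symbol is Rpl or Rps with a number, with or without an a, x or l ending, plus *Rplp0*, *Rplp1*, *Rplp2* and *Rpsa*, provided that the Ensembl ID was present in the count tables of both ages. Of 83 annotated genes with such symbols, 81 met the rule, among 24296 genes in both tables; 49 belong to the large subunit and 32 to the small subunit, and they lie on 19 chromosomes. The other two were *Rpl10l*, with no row in either table, and *Rpl3l*, with a row at E14.5 only. Expression was measured in 22 libraries, each made from RNA of 100 tdTomato+ endocrine cells sorted by flow cytometry from mouse pancreas. In embryos at E14.5 there were 6 control and 5 *Isl1CKO* libraries, and at P9 (postnatal day 9) 5 control and 6 *Isl1CKO* libraries. *Isl1CKO* mice carried floxed alleles of *Isl1* on both chromosomes, the Neurod1-Cre transgene and the Ai14 tdTomato reporter. The control is WT in the sample labels, whereas the study gives sorted control cells as heterozygous for the floxed allele with the same Cre and reporter, and its methods list floxed mice, heterozygous or homozygous, as controls without naming Cre. The reporter is switched on by Cre, so sorting for tdTomato implies Cre in both groups. Cre is driven by Neurod1, so cells with present or past Neurod1 activity, of whatever islet type, can be labelled and sorted. Littermates of both sexes on a C57BL/6 background were used. The pancreas was dispersed with trypsin at E14.5 and after collagenase perfusion at P9, so that age, dissociation and deposited table cannot be told apart.

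In the ribosome, the small subunit decodes the mRNA and the large subunit forms the peptide bond, and each protein is present once per ribosome, except for the acidic proteins of the stalk, which form a pentamer around RPLP0. The genes are scattered over the genome, and their mRNAs start with a pyrimidine tract (the TOP motif), through which LARP1 and mTORC1 control their translation. Endocrine islet cells make peptide hormones in bulk on ribosomes bound to the endoplasmic reticulum. Ribosomal protein genes have left many processed pseudogenes in mammalian genomes, and a read that also matches such a copy is lost when reads with several matches are not counted.

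Shown here are some of the members called higher in *Isl1CKO* at P9, all of which hold the letters marked. Each is given by 60 bases around the annotated start of transcription, from 40 bases before it to 20 bases from it on. The bases are as RefSeq gives them for GRCm38.p6. Called members without such letters there, such as *Rps4x* and *Rpl9*, are not shown. A RefSeq window was found for 61 of 81 members. In the first 4, capitals mark runs of at least 8 pyrimidines: *Rps26* at chr10:128626487-128626546 on the minus strand, *Rpl7a* at chr2:26910767-26910826 on the plus strand, *Rpl35* at chr2:39005112-39005171 on the minus strand and *Rps6* at chr4:86857348-86857407 on the minus strand.
Rps26: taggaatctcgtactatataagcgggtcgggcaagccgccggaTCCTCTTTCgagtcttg
Rpl7a: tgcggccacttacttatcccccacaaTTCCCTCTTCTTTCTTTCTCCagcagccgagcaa
Rpl35: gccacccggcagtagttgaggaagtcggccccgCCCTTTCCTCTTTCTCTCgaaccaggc
Rps6: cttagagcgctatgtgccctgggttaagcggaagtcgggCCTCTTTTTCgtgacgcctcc

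In the next 2, capitals mark the letters CCGGAAG or their reverse complement, the core that ETS factors such as GABPA bind: *Rps7* at chr12:28635934-28635993 on the minus strand and *Rpl37* at chr15:5116573-5116632 on the plus strand.
Rps7: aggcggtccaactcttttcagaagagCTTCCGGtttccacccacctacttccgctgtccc
Rpl37: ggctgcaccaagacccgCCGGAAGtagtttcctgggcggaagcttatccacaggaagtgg

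A pyrimidine run of at least 8 bases on the coding strand, within 30 bases on either side of the annotated start, was found for 35 of 61 members (57.4%), in any RefSeq window of the gene, against 25.5% of the 9916 genes tested at P9 that have a window and 25.8% of all 27025 genes. CCGGAAG on either strand, anywhere in the 300 bases from 250 before the start to 50 from it on, was found for 26 members (42.6%), against 20.3% of genes tested and 9.93% of all. The letters TATAAA on either strand were in 7 members (11.5%), with 8.60% of genes tested. These letter matches describe the windows and not factor binding, and a pyrimidine run may overlap the reverse complement of CCGGAAG. The median log2 fold change of *Isl1CKO* against control at P9 was 0.36 over 34 tested members with the run and 0.32 over 26 without it, and 0.36 over 25 with CCGGAAG and 0.32 over 35 without it. It was 0.19 over 7 members with and 0.36 over 53 without TATAAA. The letters of a GC box, GGGCGG, were on either strand in 38 members (62.3%) and 68.9% of genes tested, and CCAAT in 19 members (31.1%) and 43.2% of genes tested. The median was 0.32 over 38 members with and 0.41 over 22 without GGGCGG, and 0.29 over 19 members with and 0.37 over 41 without CCAAT. Of tested members with the run, 7 of 34 were called higher at P9, and 7 of 26 of those without it. With CCGGAAG 7 of 25 were called, and without it 7 of 35. None of these differences was tested.

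The libraries held 8477482 to 13580985 counts, of which 92540 to 319167 fell in the members. No 2 libraries of a group were near-identical: counts of a pair differed by at least 22.4 times the sampling variance per gene. The submitters call the libraries of a group biological replicates; the labels do not say which animals each came from. The count of *Isl1* itself, summed over all exons and thus including any that the floxed allele keeps, was 923 ± 85.0 CPM in E14.5 controls (SD, n = 6) and 659 ± 62.8 in *Isl1CKO* (n = 5), but 457 ± 61.9 in P9 controls (n = 5) and 967 ± 295 in *Isl1CKO* (n = 6), as TMM-scaled CPM. At P9 the mean was higher in the libraries labelled *Isl1CKO* than in controls, with overlap (450 to 1244 against 360 to 531 CPM). The count does not check the deletion. The 6 pan-endocrine markers were present in every group, with sums of 13324 to 15967 CPM in P9 controls and 42088 to 64022 in P9 *Isl1CKO*. The 8 islet hormone genes (for insulin, glucagon, somatostatin, pancreatic polypeptide, peptide YY, ghrelin and amylin) took 51.1 to 56.4% of all counts in P9 controls and 13.98 to 30.2% in P9 *Isl1CKO*, against 2.44 to 6.17% and 0.710 to 2.49% at E14.5. The summed level of macrophage markers ranged from 24.9 to 80.9 CPM in P9 controls and from 7.56 to 55.3 in P9 *Isl1CKO*. That of 4 ductal genes ranged from 33.0 to 70.1 CPM in P9 controls and from 49.4 to 472 in P9 *Isl1CKO*, with like medians of 58.0 and 60.2 CPM. That of acinar genes reached 1192 CPM in 1 P9 control and 207 in P9 *Isl1CKO*. Their part in the results at P9 was not tested.

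As a set, the ribosomal protein genes took a larger share of the counts in *Isl1CKO* than in control cells at P9, and the size of this difference depended on whether hormone mRNA was counted. Of all counts, 2.04 ± 0.0703% lay in the members in E14.5 controls (SD, n = 6), 2.19 ± 0.0947% in E14.5 *Isl1CKO* (n = 5), 0.893 ± 0.0987% in P9 controls (n = 5) and 1.82 ± 0.294% in P9 *Isl1CKO* (n = 6). At P9 every *Isl1CKO* library was above every control, with 0.791 to 1.04% in controls and 1.51 to 2.32% in *Isl1CKO*, a ratio of means of 2.04. With the 8 hormone genes left out of the denominator, the share was 2.13 ± 0.0790% and 2.22 ± 0.0892% at E14.5 and 1.95 ± 0.134% and 2.33 ± 0.225% at P9, a ratio of 1.19 at P9, and the P9 groups overlapped, since 1 control library at 2.17% lay above the lowest *Isl1CKO* library at 2.05%. In bulk samples, fewer cells of a type and less RNA per cell cannot be told apart, so a share says nothing of ribosomes per cell. At P9 the share of the mitochondrial genome also stood apart, at 1.55 to 2.02% of counts in controls and 2.27 to 3.12% in *Isl1CKO*, while on the TMM scale, defined next, its sum overlapped, at 27360.0 to 32169.6 and 25943 to 36303 CPM. The part of hormone mRNA in the result was not tested beyond these denominators.

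Levels are given as CPM, counts scaled to a common TMM-scaled library size, with TMM factors from all 22 libraries; TMM (trimmed mean of M values) scales libraries so that most genes do not differ, and so takes out most of the effect of the hormone genes on the others. On this scale the summed level of the set was 15438 ± 513 CPM in E14.5 controls, 16248 ± 665 in E14.5 *Isl1CKO*, 15246 ± 979 in P9 controls and 19750.1 ± 1689.9 in P9 *Isl1CKO*. The P9 groups did not overlap (14361 to 16880.1 against 17341 to 22366 CPM), at a ratio of 1.30, whereas the E14.5 groups overlapped, at a ratio of 1.05. Control libraries of both ages overlapped in this sum, at a ratio of P9 to E14.5 of 0.988. The highest P9 *Isl1CKO* library, replicate 5, had 22366 CPM. The plot of the set by library shows the share of all counts, the share without hormone genes and the scaled sum side by side.

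**Figure D1:**
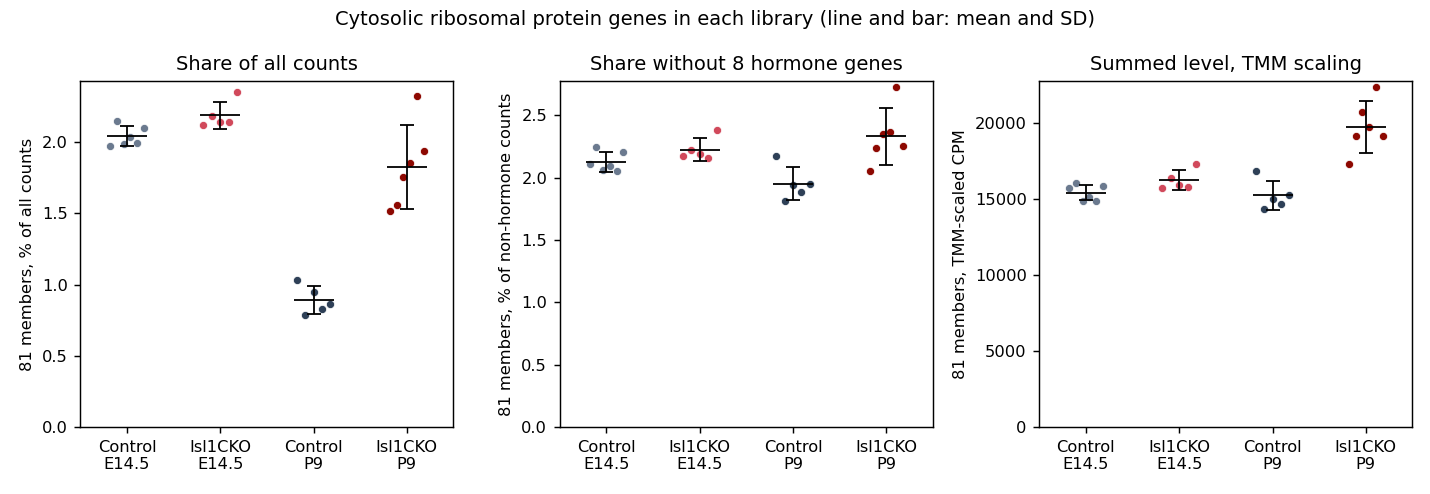
Cytosolic ribosomal protein genes in each library: percent of all counts (left), percent of counts without the 8 hormone genes (middle) and summed TMM-scaled CPM (right). Each point is 1 library, lines and bars are the mean and SD; P9 controls lie at 0.791 to 1.04% and P9 *Isl1CKO* at 1.51 to 2.32% of all counts, and the P9 groups overlap when hormone counts are left out.

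At E14.5, 1 of 80 members tested was higher in *Isl1CKO* and none was lower, at an adjusted p under 0.05 from edgeR over all 15960 genes tested; of all genes, 0.602% were called higher and 0.827% lower. At an unadjusted p under 0.05, 12 members were higher and 0 lower, and the share of all genes at that threshold was not counted. The one called was *Rps14*, whose protein sits at the platform of the small subunit. *Rps14* lay from 567 to 683 with a median of 614 CPM in the 6 controls and at 686, 717, 731, 728 and 763 CPM in *Isl1CKO* libraries 1 to 5. The lowest *Isl1CKO* library stood just above the highest control (log2 fold change 0.24, SE 0.056, adjusted p = 0.0470). This call was kept in 1 of 11 fits that left out a library. The median log2 fold change over the 80 members was 0.075, beside -0.0045 over all genes. Of the members, 65 of 80 were above 0, beside 49.4% of all genes. The largest positive values belonged to *Rpl38* (0.37), a protein that affects translation of Hox mRNAs, *Rps29* (0.34), *Rps2* (0.28) and *Rpl29* (0.26), and the largest negative ones to *Rpl24* (-0.26), *Rps19* (-0.12), *Rps27* (-0.11), *Rps3* (-0.095) and *Rps24* (-0.069), none of which passed the test. *Rpl24* rests on few counts, 14 to 48 per library at E14.5 and 2 to 25 at P9, so counting error is a large part of its spread. The levels of 2 members (*Rps14* and *Rpl18*) did not overlap between groups, both higher in *Isl1CKO*, beside 1.15% of all genes. Summed over 6 pan-endocrine markers, levels were 9236 to 13028 CPM in E14.5 controls and 17302 to 20200.5 in E14.5 *Isl1CKO*, with 2 called higher and 2 lower. Summed over 6 hepatoblast markers, they were 15.8 to 50.4 and 39.0 to 193 CPM, with overlap, and 2 were called higher (median log2 fold change 1.63). Their part in the result was not tested.

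At P9, 18 of 80 members tested were higher in *Isl1CKO* and none was lower (edgeR, adjusted p under 0.05); of all 13964 genes tested, 2.66% were called higher and 2.14% lower. The members called made up 22.5% of those tested. At an unadjusted p under 0.05, 46 were higher and 0 lower, and the share of all genes at that threshold was not counted. The median log2 fold change of the members was 0.35 (quartiles 0.23 and 0.52), beside 0.023 over all genes. Of the members, 74 of 80 were above 0, beside 51.7% of all genes. The levels of 27 members were higher in all *Isl1CKO* than in all control libraries and those of 0 lower, beside 2.91% and 2.52% of all genes. Both subunits took part, with 12 of 48 large subunit genes called (median 0.34) and 6 of 32 small subunit genes (median 0.36).

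Of the small subunit, *Rps26*, whose protein lines the mRNA exit channel, had 191, 160.0, 153, 160.1 and 166 CPM in P9 control libraries 1 to 5 and lay from 225 to 278 with a median of 252 CPM in the 6 *Isl1CKO* libraries (log2 fold change 0.61, SE 0.12, adjusted p = 0.00696). Every *Isl1CKO* library was above every control. *Rps14* had 659.6, 668, 678, 659 and 666 CPM in controls, the smallest spread relative to the mean of any member in any group, and lay from 819 to 1124 with a median of 997 CPM in *Isl1CKO* (log2 fold change 0.57, SE 0.11, adjusted p = 0.00698). *Rps4x*, the X-linked copy of a core small subunit protein, had 232, 177, 178, 151 and 173 CPM in controls and lay from 254 to 415 with a median of 287 CPM in *Isl1CKO* (log2 fold change 0.79, SE 0.16, adjusted p = 0.00999), the largest log2 fold change among the members. Control library 1 came closest to the *Isl1CKO* libraries without reaching them. *Rps6*, the substrate of S6 kinase downstream of mTORC1, had 200.1, 191, 139.7, 200.02 and 206 CPM in controls, with library 3 low, and lay from 251 to 295 with a median of 279 CPM in *Isl1CKO* (log2 fold change 0.55, SE 0.13, adjusted p = 0.0209). The other small subunit genes called were *Rps7* (log2 fold change 0.60) and *Rps23* (0.58), a protein of the decoding centre.

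Of the large subunit, *Rpl7a* had 177, 147, 153, 159 and 150.0 CPM in controls and lay from 216 to 260.1 with a median of 236 CPM in *Isl1CKO* (log2 fold change 0.58, SE 0.12, adjusted p = 0.00955). The groups did not overlap. *Rpl26*, a protein near the exit tunnel, had 183, 163, 178, 187 and 190.3 CPM in controls and lay from 222 to 334 with a median of 274 CPM in *Isl1CKO* (log2 fold change 0.60, SE 0.13, adjusted p = 0.0147). *Rpl9* had 276, 213, 240.4, 226 and 254 CPM in controls and lay from 306 to 518 with a median of 366 CPM in *Isl1CKO* (log2 fold change 0.67, SE 0.15, adjusted p = 0.0181). Both stood apart between groups, and the spread was wider among *Isl1CKO* than among control libraries (SD 80.03 against 24.6 CPM for *Rpl9*). *Rpl36a*, on the X chromosome like *Rps4x*, had the largest value of the large subunit (log2 fold change 0.69, adjusted p = 0.0335). The others called were *Rpl3* (0.56), which reaches to the peptidyl transferase centre, *Rpl35* (0.58) and *Rpl17* (0.59) of the exit tunnel rim, *Rpl11* (0.53), *Rpl23* (0.58), *Rpl7* (0.52), *Rpl27* (0.54) and *Rpl37* (0.52), and of all 18 the groups of *Rpl23* overlapped. Below 0 were *Rpl24* (-0.45), *Rpl41* (-0.033), *Rpl10a* (-0.032), *Rpl7l1* (-0.032), *Rplp0* (-0.012) and *Rpl22l1* (-0.0040), none past the test.

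The number of members called at P9 depended on how libraries were scaled. With total counts 77 members were called, but the median of all genes then moved to 0.68, and with totals over all genes but the 8 hormone genes 5 were called (*Rps26*, *Rps14*, *Rpl7a*, *Rps4x* and *Rpl26*), with a median of all genes of -0.091. The median of the members minus that of all genes was 0.33, a value that a scaling leaves in place by construction, since it shifts all genes alike. Leaving out 1 library left 6 to 19 called, and *Rps26*, *Rps14*, *Rpl7a*, *Rps4x* and *Rpl26* were called in all 11 of these fits and the other 13 in 2 to 10 of them; without control library 2 there were 6.

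**Figure D2:**
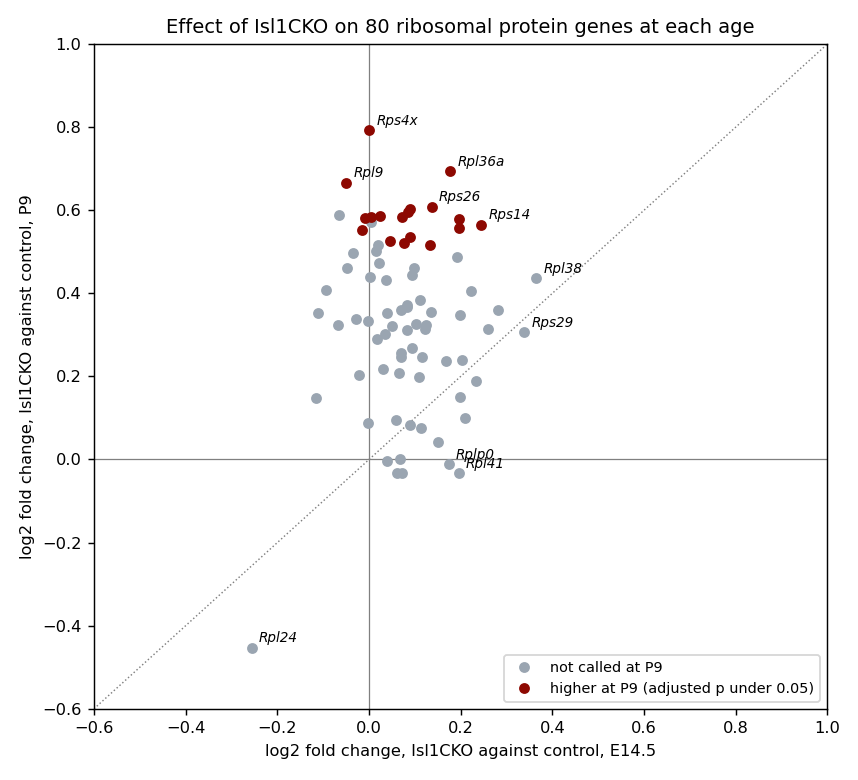
log2 fold change of *Isl1CKO* against control at E14.5 (horizontal axis) and P9 (vertical axis) for the 80 members tested, 1 point per gene; red points were called at P9 and the dotted line marks equal values. The points spread upward at P9, between -0.45 and 0.79, around a median of 0.35, and stay near 0 at E14.5, around a median of 0.075.

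Whether the effect of *Isl1CKO* differed between the ages was tested directly as the interaction term of one model over all 22 libraries. The effect was larger at P9 than at E14.5 for 8 of 80 members and smaller for none, beside 1.23% and 0.851% of all 17265 genes tested. At an unadjusted p under 0.05, 36 members had a larger effect at P9, and the share of all genes at that threshold was not counted. The 8 were *Rpl7a* (difference of log2 fold changes 0.60, SE 0.13, adjusted p = 0.0142), *Rpl9* (0.72), *Rps4x* (0.80), *Rps6* (0.57), *Rpl35* (0.59), *Rps26* (0.48), *Rpl26* (0.52) and *Rps15a* (0.66). *Rps4x* lay from 135 to 166 with a median of 157 CPM in E14.5 controls and had 144, 151, 149, 164 and 159 CPM in E14.5 *Isl1CKO* libraries 1 to 5, so that the E14.5 groups were interleaved where the P9 groups were apart. *Rps15a* was not called within P9 (log2 fold change 0.59, SE 0.16, adjusted p = 0.0502), where its levels were 105, 108, 110.0, 95.6 and 91.4 CPM in controls and from 115 to 189 with a median of 149 CPM in *Isl1CKO*, with all *Isl1CKO* libraries higher. The median over the members was 0.28, beside 0.056 over all genes. The number of members called ranged from 3 to 15 when 1 library was left out.

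**Figure D3:**
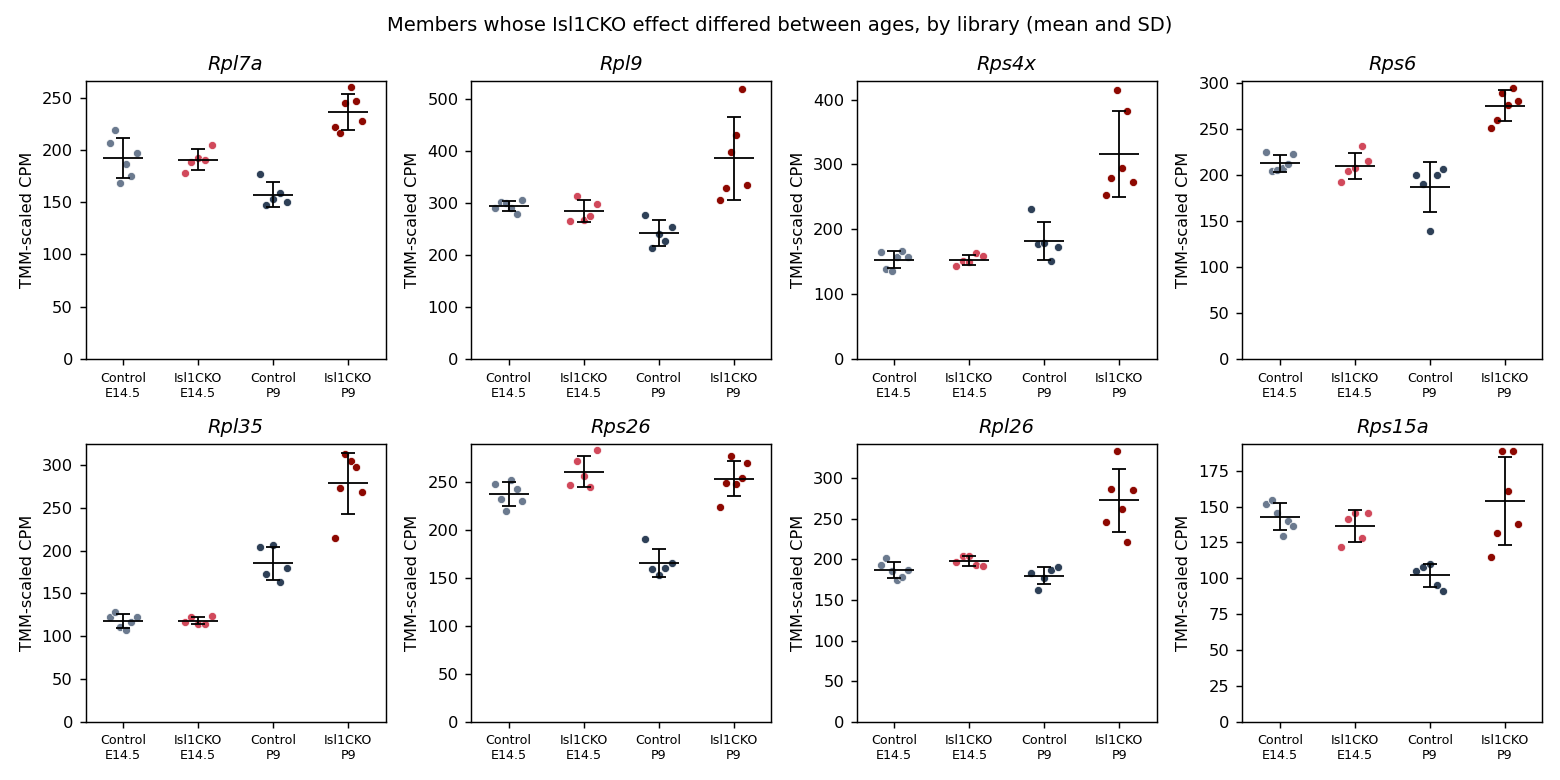
TMM-scaled CPM of the 8 members whose *Isl1CKO* effect differed between ages, by library in the 4 groups, with mean and SD. In each panel the E14.5 groups overlap and the P9 *Isl1CKO* libraries lie above the P9 controls, as for *Rps26* with 166 ± 14.51 CPM (SD, n = 5) in P9 controls and 254 ± 18.6 (n = 6) in P9 *Isl1CKO*.

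The makeup of the set, meaning the part that each gene takes of it, was compared next. For this, libraries were scaled by the summed counts of the members, so that a change shared by all members cancels. No member was called at E14.5 or at P9 on this scale, where 1.37% and 8.77% of all genes were called. The lowest adjusted p from edgeR among the members was 0.181 and 0.0688. At an unadjusted p under 0.05 there were 6 and 9 members, and the share of all genes at that threshold was not counted. The interaction called 2 of 80 lower, a share near the 2.40% of all genes called lower on this scale. They were *Rpl41* (difference -0.51, adjusted p = 0.0392), a very short basic peptide, and *Rplp0* (-0.48, adjusted p = 0.0436), the base of the stalk. At P9 *Rpl41* had 395, 379.5, 377, 355 and 415 CPM in controls and lay from 341 to 427 with a median of 371 CPM in *Isl1CKO*, and the groups were interleaved. The percent of the set in each gene ranked alike in P9 controls and P9 *Isl1CKO* (Spearman's rho 0.977 across 81 genes of the same libraries, a description), and 1 member, *Rpl24* with its few counts, differed over 1.5-fold.

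Between the ages, some members changed their share of the set in both genotypes, as many genes outside the set did on this scale. In controls 15 members took a larger and 18 a smaller share of the set at P9 than at E14.5, and in *Isl1CKO* 17 a larger and 17 a smaller one (edgeR on the scale of summed member counts, adjusted p under 0.05). On this scale 15.9% of all genes were called higher and 14.3% lower in controls, and 10.5% and 20.9% in *Isl1CKO*. Of the 80 members tested, the part called higher in controls and the part called lower in *Isl1CKO* were near those of all genes. The part called lower in controls and the part called higher in *Isl1CKO* were above them. These comparisons use different libraries. Of the members with a larger share, 12 were called in both genotypes, of 15 in controls and 17 in *Isl1CKO*. Of those with a smaller share, 11 were, of 18 and 17, and 0 were called in opposite directions. The same overlap was not counted over all genes. 12 members changed share over 1.5-fold in controls and 13 in *Isl1CKO*. Since the dissociation and the deposited table go with age, their part cannot be told apart from it.

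On the TMM scale, in controls 14 members were higher and 18 lower at P9 than at E14.5, beside 15.8% and 15.2% of all 17265 genes, and the median of the members was -0.083, beside -0.039. In *Isl1CKO* 33 were higher and 7 lower, beside 16.0% and 13.7%, with medians of 0.23 and 0.047. Of the members tested, 22.5% were lower in controls and 41.25% higher in *Isl1CKO*, both above the shares of all genes. The part higher in controls, 17.5%, was near that of all genes, and the part lower in *Isl1CKO*, 8.75%, was below it. The medians moved with the filter and the tool. In *Isl1CKO* those of the members and of all genes were 0.13 and 0.14 without a filter and 0.21 and 0.23 with DESeq2, so that the members no longer lay above all genes. In controls they were -0.20 and 0.017 without a filter and -0.081 and 0.14 with DESeq2. With total counts as the scale, of which hormone mRNA was over 50% in P9 controls, the median of the members in controls was -1.26 beside -1.21 for all genes, and all 80 values in controls were below 0, so directions are given relative to the TMM scale.

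Relative to the TMM scale, *Rps12* rose most with age, though its value in controls was -0.073 with total counts. It had 84.3, 67.4, 92.6, 63.9 and 71.5 CPM in P9 controls and lay from 31.2 to 46.4 with a median of 33.5 CPM in E14.5 controls (log2 fold change 1.09, SE 0.18, adjusted p = 5.06e-05), and in *Isl1CKO* it had 38.4, 40.6, 40.9, 34.9 and 48.0 CPM at E14.5 and lay from 62.1 to 149 with a median of 107 CPM at P9 (log2 fold change 1.40, SE 0.18, adjusted p = 3.35e-06). No P9 library reached down to an E14.5 library of its genotype. *Rpsa*, a small subunit protein also described as a laminin receptor, had 180.1, 130.5, 133, 152 and 172 CPM in P9 controls and lay from 82.0 to 92.6 with a median of 89.7 CPM at E14.5 (log2 fold change 0.79, SE 0.11, adjusted p = 1.19e-05). *Rplp1* of the stalk (0.62 in controls and 0.78 in *Isl1CKO*), *Rpl35* (0.65 and 1.24), *Rpl38* (0.93 and 1.01), *Rps21* (0.80 and 0.76) and *Rpl12* (0.78 and 0.75) were higher at P9 in both genotypes on the TMM scale, with all 5 below 0 in controls on total counts. *Rpl17* was higher at P9 as well, with 0.45 in controls and 1.02 in *Isl1CKO*. *Rps4x* rose in *Isl1CKO* by 1.05 on the log2 scale, and in controls its value was 0.25 (adjusted p = 0.145).

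Lower at P9 in both genotypes were *Rpl29* (-0.81 in controls and -0.74 in *Isl1CKO*), *Rpl13a* (-0.72 and -0.49), *Rpl7l1* (-0.71 and -0.80), *Rpl14* (-0.57 and -0.36) and *Rpl18* (-0.43 and -0.39). *Rpl14* had 256, 204, 236, 230.3 and 238 CPM in P9 controls and lay from 297 to 364 with a median of 356 CPM in E14.5 controls, with no overlap (log2 fold change -0.57, SE 0.095, adjusted p = 6.48e-05). *Rpl13a* had 35.9, 37.6, 40.9, 41.4 and 37.7 CPM in P9 controls and lay from 61.0 to 70.3 with a median of 62.7 CPM at E14.5. *Rps26*, by contrast, was lower at P9 in controls (log2 fold change -0.52, SE 0.086, adjusted p = 6.38e-05), while in *Isl1CKO* its value was -0.041 (adjusted p = 0.757), which is the difference that the interaction tested. *Rpl15*, *Rpl13*, *Rps15a*, *Rpl11* and *Rpl7* were lower at P9 in controls as well, with log2 fold changes from -0.49 for *Rps15a* to -0.40 for *Rpl7*.

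**Figure D4:**
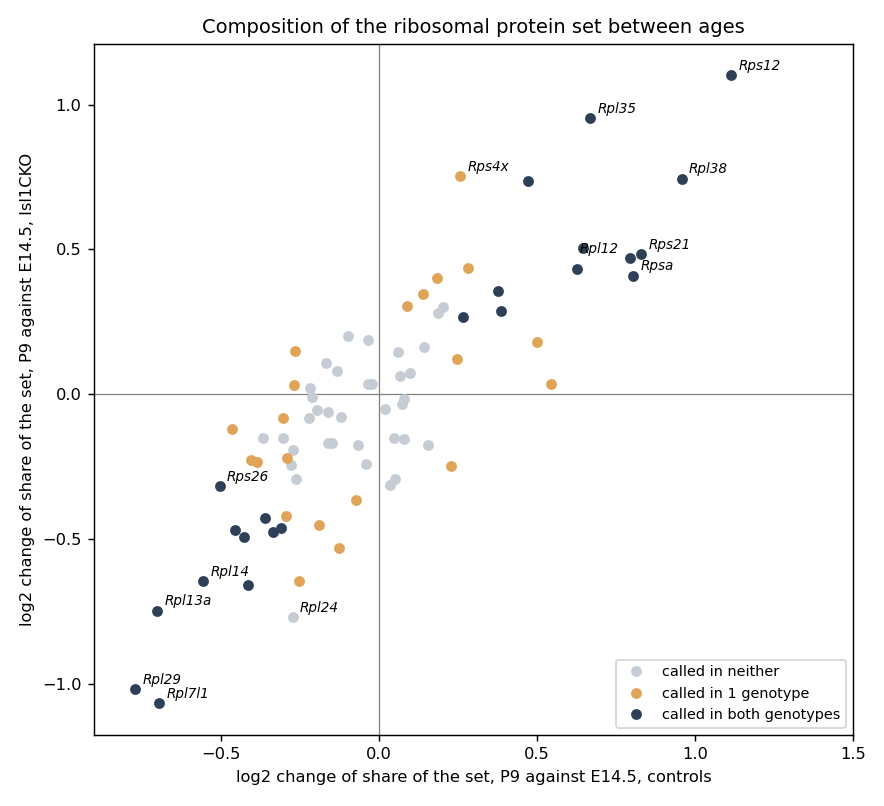
Change of each member's share of the set from E14.5 to P9 (log2, libraries scaled by summed member counts) in controls (horizontal axis) and *Isl1CKO* (vertical axis), 1 point per gene. Members called in both genotypes lie in the lower left and upper right, for example *Rpl29* at -0.77 and -1.02 and *Rps12* at 1.11 and 1.10, and none was called in opposite directions.

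Some members have roles of their own, and they are given by role. The stalk, which recruits elongation factors, comprises RPLP0 and dimers of RPLP1 and RPLP2. At P9 *Rplp0* had 487 ± 65.0 CPM in controls (SD, n = 5) and 485 ± 89.8 in *Isl1CKO* (n = 6), *Rplp2* 156 ± 7.44 and 162 ± 14.4, and *Rplp1* 258 ± 20.5 and 329 ± 32.2. Their log2 fold changes were -0.012 (SE 0.14), 0.042 (SE 0.12) and 0.35 (SE 0.12), and none passed the test. All *Isl1CKO* libraries were above all controls for *Rplp1* and interleaved with them for the other two. *Rpsa* likewise had 153 ± 22.3 CPM in controls and 165 ± 21.8 in *Isl1CKO*. RPL5 and RPL11 form a particle with one of the ribosomal RNAs that can bind MDM2. *Rpl11* was called higher at P9 (log2 fold change 0.53, SE 0.14, adjusted p = 0.0395), with 167, 160.1, 165, 149 and 173 CPM in controls and *Isl1CKO* libraries from 199.8 to 286 with a median of 221 CPM, all above the controls. *Rpl5* had 173, 117, 153, 94.3 and 180.4 CPM in controls and lay from 175 to 259.6 with a median of 196 CPM in *Isl1CKO*, and 1 control library fell inside the *Isl1CKO* range (log2 fold change 0.50, SE 0.18, adjusted p = 0.143). *Rps19*, mutated in Diamond-Blackfan anaemia, had 252 ± 35.2 CPM in controls and 279.6 ± 66.0 in *Isl1CKO* (log2 fold change 0.15, SE 0.16, adjusted p = 0.727).

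Several members are paralogs of another, and no test compared the members of a pair. *Rps27* and *Rps27l* differ in 61 of 255 coding bases in GENCODE M21, with no shared run longer than 11 bases. The first 120 coding bases show this, with capitals where the other paralog has another base.
Rps27: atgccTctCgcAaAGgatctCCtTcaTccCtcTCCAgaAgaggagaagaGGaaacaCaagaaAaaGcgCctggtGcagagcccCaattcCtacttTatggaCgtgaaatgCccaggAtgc
Rps27l: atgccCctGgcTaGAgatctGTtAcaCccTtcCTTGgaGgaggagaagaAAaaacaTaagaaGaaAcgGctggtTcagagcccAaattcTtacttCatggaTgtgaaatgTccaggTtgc

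*Rps27l*, a target of p53, was abundant in these cells. *Rps27l* had 246 ± 15.7 CPM in E14.5 controls, 265 ± 16.4 in E14.5 *Isl1CKO*, 374 ± 36.5 in P9 controls and 431 ± 127 in P9 *Isl1CKO*, and was higher at P9 in controls (log2 fold change 0.60, SE 0.15, adjusted p = 0.00280). *Rps27* had 347 ± 19.6, 321 ± 24.4, 417 ± 59.3 and 534 ± 148 CPM in the same order. In P9 *Isl1CKO* both varied widely, *Rps27* from 372 to 784 with a median of 505 CPM and *Rps27l* from 251 to 599.6 with a median of 407 CPM. Neither passed the test of genotype at P9 (log2 fold changes 0.35 and 0.20).

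The coding sequences of *Rpl39* and *Rpl39l* are closer. They differ in 23 of 156 coding bases, and the first 120 of them are shown with capitals where they differ.
Rpl39: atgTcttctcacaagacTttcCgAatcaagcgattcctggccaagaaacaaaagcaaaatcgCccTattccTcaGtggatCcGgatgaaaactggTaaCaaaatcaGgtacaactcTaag
Rpl39l: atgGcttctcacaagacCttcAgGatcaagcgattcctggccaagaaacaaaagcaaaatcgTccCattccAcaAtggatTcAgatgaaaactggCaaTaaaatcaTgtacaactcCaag

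*Rpl39l*, a copy known from the testis, had at most 11 counts in a library and was the 1 member that did not pass the filter on low counts. *Rpl39* had 45.7 ± 6.602, 47.8 ± 5.80, 46.8 ± 7.57 and 47.0 ± 8.73 CPM in E14.5 control, E14.5 *Isl1CKO*, P9 control and P9 *Isl1CKO*, and none of its comparisons passed the test. *Rpl22* and *Rpl22l1* were both present: *Rpl22* had 65.7 ± 15.3 CPM in P9 controls and 90.7 ± 12.8 in P9 *Isl1CKO* (log2 fold change 0.46, adjusted p = 0.195), and *Rpl22l1* 90.0 ± 17.7 and 90.1 ± 16.4 (log2 fold change -0.0040). *Rpl7* was called higher at P9 (log2 fold change 0.52, SE 0.13, adjusted p = 0.0309), and *Rpl7l1* was not (log2 fold change -0.032, SE 0.28, adjusted p = 0.977). *Rpl3* had 235 ± 11.3 CPM in P9 controls and 347 ± 51.2 in P9 *Isl1CKO* (log2 fold change 0.56, SE 0.13, adjusted p = 0.0181), and *Rpl10*, at the tRNA binding sites of the large subunit, 368 ± 19.6 and 436 ± 99.8 (log2 fold change 0.24, SE 0.14, adjusted p = 0.454). The levels of *Rpl7l1* were 43.8, 47.0, 26.2, 28.2 and 40.0 CPM in P9 controls and from 49.4 to 67.6 with a median of 62.9 CPM in E14.5 controls, without overlap.

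Levels of different members were compared per kilobase of exon, as TMM-scaled CPM per kilobase. The highest, by the mean of the 4 groups, were *Rpl4*, which lines the exit tunnel (524), *Rplp1* (474) and *Rpl32* (427), and the lowest *Rpl39l* (0.182), *Rpl24* (1.49) and *Rps10* (4.01). *Rpl24* and *Rps10* encode core proteins of the ribosome, so their place in this order is taken up next. The order at the top depends on the length used. Per kilobase of coding sequence the highest were *Rpl41* (4274), *Rps14* (1641) and *Rps27* (1587), while *Rpl32* had 1009, *Rpl4* 835 and *Rplp1* 685. Each coding sequence was divided into all windows of 50 bases, and a window was called copied where a transcript of another GENCODE M21 gene holds the same 50 bases. The median member had 91.3% of its windows copied, and 27 of 81 had all of them copied. For *Rpl24* 99.3% of windows were copied and 47.0% of exon bases lie in another annotated gene, *Gm28037*; for *Rps10* these values were 92.4% and 28.7%. *Rpl7a* had copies in 123 other genes and *Rpl29* in 84. Across the 81 members, the level per kilobase of coding sequence and the percent of windows copied had a Spearman's rho of -0.255, a description over genes of the same libraries. Levels of single members may be too low where reads with several matches were left out, by an amount not known here.

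Members with few and with many copied windows had like medians at P9. Over 12 tested members with under 50% of windows copied, the median log2 fold change was 0.36 and 0 were called; over 32 with 50 to 95% it was 0.39 with 9 called, and over 36 with 95% or more it was 0.32 with 9 called. Of the members called at P9, *Rpl35* shares 66.2% of its exon bases with *Arpc5l* and *Wdr38*; the libraries do not keep strand, so its level is uncertain. Ribosomal protein pseudogenes took 0.0112 to 0.0159% of all counts in P9 controls and 0.0170 to 0.0279% in P9 *Isl1CKO*, and of 36 tested none was called by edgeR (3 at an unadjusted p under 0.05), with a median log2 fold change of 0.12.

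Genes that work with the ribosome were taken from lists that share some genes. Counts of these lists at P9 stand beside 2.66% called higher and 2.14% called lower of all genes tested. Among ribosomal genes outside the symbol rule, *Rack1*, the scaffold protein on the head of the small subunit, was higher in *Isl1CKO* at P9. It had 294 ± 50.7 CPM in controls (range 250.5 to 382, n = 5) and 479 ± 48.4 in *Isl1CKO* (range 401 to 547, n = 6), with no overlap (log2 fold change 0.70, adjusted p = 0.00637). Its effect was larger at P9 than at E14.5 (difference 0.75, adjusted p = 0.00645). *Fau* had 0.47 (adjusted p = 0.0730).

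Of other mRNAs with a TOP motif, 5 of 18 genes tested were higher and 0 lower at P9, with a median of 0.40: *Rack1*, the elongation factor *Eef1a1* (log2 fold change 0.62, adjusted p = 0.00824), the initiation factor subunit *Eif3h* (log2 fold change 0.60, adjusted p = 0.0235), *Tpt1* (log2 fold change 0.51, adjusted p = 0.0413) and *Vim* (log2 fold change 2.95, adjusted p = 0.0254), an intermediate filament protein typical of mesenchymal cells. The study names *Vim* among genes of intermediate endocrine progenitors that it found enriched in *Isl1CKO* cells at both ages. The summed level of 5 mesenchyme markers was 9.38 to 84.2 CPM in P9 controls and 4.23 to 31.2 in P9 *Isl1CKO*. Of translation elongation factors, 1 of 9 genes tested were higher and 0 lower (median 0.39), and *Eef2* had 0.13 (adjusted p = 0.789). Of initiation factors, 1 of 36 genes tested were higher and 0 lower (median 0.15). Of snoRNA host genes, 2 of 12 genes tested were higher and 0 lower, namely *Rack1* and *Tpt1*.

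Medians of the lists for the making of ribosomes were below that of the members. Of ribosome biogenesis genes, 0 of 58 genes tested were higher and 0 lower (5 at an unadjusted p under 0.05) at P9 by edgeR, and the median was 0.076, beside 0.023 over all genes. Of RNA polymerase I subunits and factors, 1 of 20 genes tested were higher and 0 lower (median 0.13), the one being *Polr2k*, a subunit shared by the nuclear polymerases (log2 fold change 0.95, adjusted p = 0.0208). Of importins and chaperones, 0 of 11 genes tested were higher and 0 lower (2 at an unadjusted p under 0.05) (median -0.14), and of mTORC1, S6 kinase, MYC and LARP1 genes 0 of 22 genes tested were higher and 0 lower (4 at an unadjusted p under 0.05) (median -0.040). *Mtor* had -0.88 (SE 0.33), *Rps6kb1* -0.29 (SE 0.26), *Larp1* 0.21 (SE 0.23), *Myc* 2.82 (SE 1.24) and *Mycl* 1.69 (SE 0.58), none past the test. Of mitochondrial ribosomal proteins, which belong to another ribosome, 1 of 77 genes tested were higher and 0 lower (median 0.13), with *Mrps18c* called (log2 fold change 0.80, adjusted p = 0.0266). Of p53 response genes, 0 of 11 genes tested were higher and 0 lower (2 at an unadjusted p under 0.05), of cell cycle genes 0 of 14 genes tested were higher and 0 lower (1 at an unadjusted p under 0.05), and of integrated stress response genes 0 of 13 genes tested were higher and 1 lower, the last being *Atf4* (log2 fold change -0.78, adjusted p = 0.0342), the factor translated under that response. The medians of these lists and of the members were not tested against each other.

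At E14.5 few genes of these translation and growth lists were called: *Vim* (log2 fold change 1.346, adjusted p = 8.47e-04), *Asns* of the integrated stress response (log2 fold change 0.84, adjusted p = 0.0118) and *Mcm6* of the cell cycle (log2 fold change 1.53, adjusted p = 0.0388) were higher in *Isl1CKO*, and no gene of the other lists was called. Between the ages in controls, initiation factors had 1 higher and 14 lower of 36, with the smallest p for *Eif4a1* (log2 fold change -1.40, adjusted p = 9.03e-07), and ribosome biogenesis genes 3 higher and 10 lower of 58, with *Rrp1* lower (log2 fold change -1.03, adjusted p = 6.98e-06) and *Ncl*, nucleolin, higher (log2 fold change 0.47, adjusted p = 2.45e-05). Importins and chaperones had 2 higher and 2 lower of 13 at P9 in controls, with a median of 0.19. The 2 lower were the nascent chain complex genes *Naca* (log2 fold change -0.87, adjusted p = 9.97e-09) and *Btf3* (log2 fold change -0.84, adjusted p = 5.94e-05). Mitochondrial ribosomal proteins had 8 higher and 16 lower of 77. *Snhg12* (log2 fold change 2.45, adjusted p = 3.37e-05) had the smallest p of the snoRNA host genes, with 7 higher and 0 lower of 12, and cell cycle genes had 12 higher and 0 lower of 14. In *Isl1CKO* the counts were 3 higher and 10 lower of 36 for initiation factors, 4 higher and 8 lower of 58 for biogenesis, 9 higher and 0 lower of 12 for snoRNA hosts and 12 higher and 0 lower of 14 for the cell cycle. Of all genes tested between the ages, 15.8% were called higher and 15.2% lower in controls, and 16.0% and 13.7% in *Isl1CKO*. The parts of biogenesis genes called lower were near these in both genotypes, and the parts called higher were below them. In both genotypes the parts of initiation factors called lower were above the shares of all genes. So were the parts of snoRNA hosts and of cell cycle genes called higher.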

How the data were processed

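Counts were analysed for 22 libraries of sorted endocrine cells, 11 at each age. Before deposition the authors trimmed reads with cutadapt 1.18 and Trimmomatic, removed ribosomal RNA reads with Bowtie 1.2.2 and SortMeRNA, mapped the rest to GRCm38 with STAR 2.7.0c and counted them per gene with Rsubread, leaving out reads that match several places; the deposited values are raw counts per Ensembl gene, 1 table per age. A gene with many copies therefore loses reads, and without strand an overlapping gene cannot be told apart. Groups came from the sample labels. Symbols, biotypes and coding sequences came from GENCODE M21.

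The test was the quasi-likelihood F test of edgeR 4.0.16 (R 4.3.3; TMM factors, filterByExpr, glmQLFit, glmQLFTest), tried on simulated data and run within each age or over all 22 libraries; Benjamini-Hochberg adjustment took in every gene that passed the filter, members or not, and adjusted p-values are edgeR's throughout. A gene was called where the adjusted p was under 0.05. A standard error is the size of the log2 fold change divided by the square root of F. Levels used TMM factors from all 22 libraries, from 8477482 to 13580985 counts per library, and counting error is a large part of the spread for members with few counts, such as *Rpl24* and *Rpl39l*. Other scalings, no filter, DESeq2 1.42.0, a replicate block and leaving out libraries were tried; the scaling by summed member counts was chosen after seeing the data. The members and gene lists were chosen with earlier results of these data known. Named were paralog pairs, stalk, *Rpsa*, *Rpl5*, *Rpl11*, *Rps6*, *Rps19* and *Rack1*, called members up to 10 in a direction or else the 5 with the smallest p, the 5 largest and 5 smallest log2 fold changes, the 3 highest and 3 lowest levels per kilobase, and up to 4 called genes of each other list; further members were named after their values were seen. RefSeq promoters for GRCm38.p6 gave the windows. Values of some single genes are not reported here.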

Additional observations from a re-analysis of the deposited data

Results flagged for a closer look

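Among 96 groups examined for a library far from the rest, 8 values stood apart by Dixon's ratio, which by chance happens in about 1 of 20 groups. E14.5 *Isl1CKO* library 5 had 2.38% of counts without hormone genes in the members, with 2.22% in the nearest library, and 140.4 CPM of *Rpl17*, with 113 in the nearest. In P9 *Isl1CKO* library 5, ribosomal protein pseudogenes took 0.0279% of counts, with 0.0208% in the nearest. P9 control library 2 was low in *Rpl3* at 215 CPM, with 237 in the nearest. *Rpl37* was high in E14.5 control library 2 (175 CPM, nearest 149) and in P9 control library 4 (204 CPM, nearest 165). P9 control library 3 was low in *Rpl7* (143 CPM, nearest 181) and in *Rps6* (139.7 CPM, nearest 191), both called at P9.

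The effect of *Isl1CKO* differed between the ages, by edgeR's interaction term, for 8 members. On the log2 scale the effect at P9 minus that at E14.5 was 0.60 for *Rpl7a* (adjusted p = 0.0142), 0.72 for *Rpl9* (adjusted p = 0.0176), 0.80 for *Rps4x* (adjusted p = 0.0188), 0.57 for *Rps6* (adjusted p = 0.0260), 0.59 for *Rpl35* (adjusted p = 0.0299), 0.48 for *Rps26* (adjusted p = 0.0362), 0.52 for *Rpl26* (adjusted p = 0.0410) and 0.66 for *Rps15a* (adjusted p = 0.0410).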

How the results depend on the processing

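At E14.5 the 1 call (*Rps14*) gave way to 0 members called with RLE factors, with summed member counts as the scale, without a filter on low counts and with the replicate number as a block, and DESeq2 called 2; leaving out 1 library gave 0 to 1. At P9, in place of 18, 77 members were called with total counts, 5 with totals without hormone genes, 0 with summed member counts, 33 by DESeq2 and 1 with the replicate block; leaving out 1 library gave 6 to 19, with 6 without control library 2, 8 without control library 4 and 9 without control library 3 or 5. In the interaction, in place of 8, 69 were called with total counts, 3 with totals without hormone genes, 2 with summed member counts and 17 by DESeq2; leaving out 1 library gave 3 to 15, with 15 without P9 *Isl1CKO* library 1 and 3 without E14.5 *Isl1CKO* library 1 or 3. Between the ages in controls 78 were called with total counts. With total counts the median log2 fold change of the members was 1.01 at P9, 0.92 in the interaction, -1.26 between ages in controls and -0.32, a reversed sign, in *Isl1CKO*, where it was 0.012 with totals without hormone genes. Without a filter it was -0.20 between ages in controls. In controls total counts also turned the sign with age of *Rplp1* (to -0.55), *Rpsa* (to -0.39), *Rps21* (to -0.38), *Rpl35* (to -0.52) and *Rps12* (to -0.073). The share of counts at P9 differed by 0.931 percentage points, by 0.378 without hormone genes in the denominator and by 0.434 over coding nuclear genes without them. Apart from the scalings' own construction the cause was not tested. Libraries with the same replicate number did not deviate together (r of -0.0489 to 0.0545 over 5 pairs at E14.5 and -0.0222 to 0.0486 over 5 pairs at P9), so the block is given here alone.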

Other observations

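Of genes of the mitochondrial genome, 7 of 8 tested were called higher at P9 than at E14.5 in controls by edgeR on the TMM scale, and none lower. Of all genes tested, 15.8% were called higher and 15.2% lower. The log2 fold change of mt-Nd6 was 2.02. The share of the mitochondrial genome in all counts of controls was 1.74% at P9 and 1.67% at E14.5, with overlap between the libraries. *Sesn2* of the p53 response was lower at P9 in controls (log2 fold change -3.39, adjusted p = 2.94e-09) and *Pcna* of the cell cycle was higher (log2 fold change 2.47, adjusted p = 2.65e-08). Summed erythroid markers were at most 6.06 CPM and endothelial ones at most 10.8 CPM in any library.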
